A study of Danio rerio with 6 samples.

Results

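The TEAD transcription factors, their coactivators Yap and Taz, and a small set of genes they are known to switch on were followed. They were compared between GFP-positive cells, sorted from zebrafish embryos as periderm, and the remaining, GFP-negative cells. The set holds 10 genes, chosen by symbol from the 26190 genes in the deposited expression tables: 6 factors (*tead1a*, *tead1b*, *tead3a*, *tead3b*, *yap1* and *wwtr1*) and 4 targets (*amotl2a*, *amotl2b*, *ctgfa* and *cyr61*). All 10 symbols were found, each with 1 Ensembl gene identifier, and together they have 21 of the 51286 transcripts. RNA was measured in 3 libraries of GFP-positive cells and 3 libraries of GFP-negative cells, sorted at the stage of 4 somites from pooled embryos of 3 incrosses of the line *Tg(krt4:GFP)*, each of which gave both populations. The transgene, common to both populations, places GFP under keratin 4 (*krt4*) regulatory sequence, which is active in the outermost cell layer, called the periderm or enveloping layer (EVL). The GFP-negative cells are the remaining cells of the same embryos and not 1 cell type, and no embryo received a treatment.

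In the Hippo pathway a chain of kinases phosphorylates Yap and Taz and thereby keeps them out of the nucleus. When the kinases are inactive, Yap and Taz enter the nucleus, bind TEAD proteins, which hold DNA but activate little on their own, and raise transcription of their targets. The pathway is known for reading cell contact and tension in epithelia. Much of this control acts on the protein, which RNA levels do not show. TEAD proteins were among the regulators that the study considered for enhancers of these cells, which raises the question of which family members these cells express and whether target genes differ between the populations.

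The estimated counts summed to between 40584467 and 49679602 per library, and the ranges of the groups overlapped. *krt4* served as the check of the sort. It had 2384, 2315 and 2591 TPM (an abundance that takes account of transcript length and of library total) in GFP-positive cells, against 545, 624 and 636 TPM in GFP-negative cells (fitted log2 change 2.13, edgeR adjusted p = 2.61e-13), so the negative gate also held *krt4* RNA. All 10 of 10 EVL markers followed here were higher in GFP-positive cells (summed level 5626 to 5849 TPM, against 865 to 961 TPM in GFP-negative cells). Markers of some other cell types differed between the populations as well. Both genes listed as *ctslb*, which mark the hatching gland, were higher in GFP-positive cells, and with *gsc* that list was higher for 3 of 3 genes (summed level 3189 to 3314 TPM, against 398 to 411 TPM in GFP-negative cells). How far reads were divided between the *ctslb* entries was not tested, so they may not count as separate markers. *gsc* was scarce and passed narrowly, with a mean of 1.16 TPM in GFP-positive cells, against 0.619 TPM in GFP-negative cells (edgeR adjusted p = 0.0499). Of 3 notochord markers, *ta* and *col8a1a* were higher and *noto* did not pass the test (summed level 290 to 351 TPM in GFP-positive cells, against 75.3 to 80.7 TPM in GFP-negative cells). Of 4 basal epidermis markers, 3 were higher in GFP-positive cells (summed level 568 to 649 TPM, against 328 to 357 TPM), and all 5 neural markers were lower (479 to 483 TPM, against 876 to 891 TPM). Of 5 paraxial mesoderm markers 1 was higher and 3 were lower (summed level 168 to 174 TPM in GFP-positive cells, against 205 to 209 TPM). Of 5 blood and endothelium markers 2 were higher and 1 was lower (315 to 326 TPM, against 335 to 358 TPM). Among the rest, 0 of 2 endoderm markers and 1 of 2 yolk syncytial layer markers were higher. The positive gate thus also held RNA of neural, mesoderm and blood markers. Levels and fold changes of the members are those of the sorted populations and may not be of periderm alone. Here higher and lower follow the call rule of the next paragraph, by which 24.1% of all genes tested were higher and 25.0% lower. In lists this small, counts such as 1 of 5 or 1 of 2 do not stand apart from these shares. No gene of these lists was at 0 in all libraries. In such sorted populations, fewer cells of a type and less RNA per cell cannot be told apart.

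Of the 4 targets, 3 were called higher in GFP-positive cells and 0 lower, whereas of the 6 factors *tead1b* was called higher, *tead1a* and *tead3a* were called lower, and *tead3b*, *yap1* and *wwtr1* were not called. Genes count as called here at an adjusted p below 0.05 (quasi-likelihood test of edgeR) and a mean TPM above 1 in whichever population was higher. By this rule 49.0% of all 20944 genes tested were called, 24.1% higher and 25.0% lower in GFP-positive cells, so a call by itself does not set a gene apart from the rest. All 10 members were among the genes tested. Positive log2 fold changes mean higher in GFP-positive cells, and they come from estimated counts summed per gene. Their median was -0.20 over the factors and 0.77 over the targets, beside 0.02 over all genes tested.

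**Figure D1:**
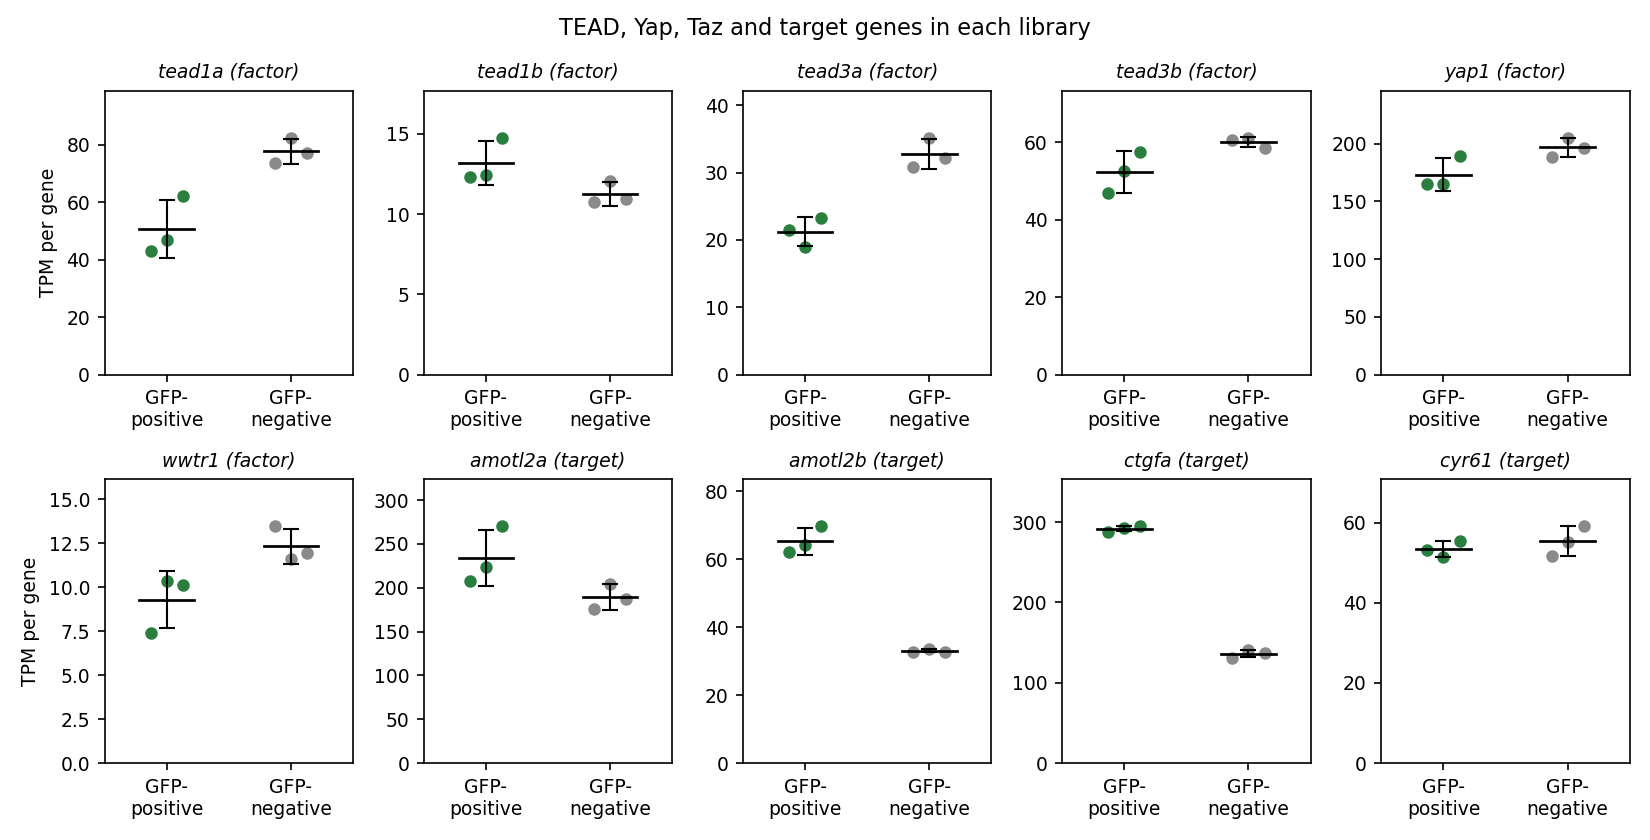
TPM summed per gene in each of the 3 GFP-positive (green) and 3 GFP-negative (grey) libraries, with the mean as a bar and the SD as whiskers; every axis starts at 0. The groups are widest apart for *ctgfa* (288 to 295 TPM against 131 to 141 TPM) and *amotl2b*, and they overlap for *yap1* and *cyr61*.

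Among the TEAD genes, *tead1a*, which encodes one of the 2 zebrafish copies of the mammalian factor TEAD1, had the largest fitted log2 fold change in size. It had 42.9, 46.9 and 62.0 TPM in the GFP-positive libraries, against 73.5, 82.3 and 77.2 TPM in the GFP-negative libraries. Every GFP-positive library lay below every GFP-negative one, and the third GFP-positive library lay closest to them. The fitted log2 fold change was -0.66 (standard error 0.10, edgeR adjusted p = 4.62e-05). The ratio of the mean TPM values was -0.619 on the log2 scale, beside -0.625 for *tead3a*, so the order of these genes depends on the scale.

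*tead1b*, the paralog of *tead1a*, went the other way. It had 12.3, 12.4 and 14.8 TPM in the GFP-positive libraries, against 10.7, 12.1 and 10.9 TPM in the GFP-negative libraries. The groups were separated by a narrow margin, since the highest GFP-negative library was just below the lowest GFP-positive one. The log2 fold change from counts was 0.40 (standard error 0.07, edgeR adjusted p = 0.000292), while the ratio of the mean TPM values was smaller, 0.23 on the log2 scale. The call was lost with limma on log2(TPM + 1), with a log2 difference of 0.21 (adjusted p = 0.109), and with limma on log2(TPM + 0.1), with 0.22 (adjusted p = 0.136). It was also lost when the more abundant transcript alone was tested by edgeR, with 0.30 (adjusted p = 0.0957). The less abundant transcript, ENSDART00000150143, was called higher (fitted log2 change 0.45, edgeR adjusted p = 0.00564).

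*tead3a*, a copy of mammalian TEAD3, had 21.5, 19.0 and 23.3 TPM in the GFP-positive libraries, against 30.9, 35.2 and 32.1 TPM in the GFP-negative libraries. The groups did not overlap, and the log2 fold change was -0.54 (standard error 0.09, edgeR adjusted p = 0.000148). The other copy, *tead3b*, had 46.8, 52.7 and 57.4 TPM in the GFP-positive libraries, against 60.5, 61.1 and 58.6 TPM in the GFP-negative libraries. These TPM values did not overlap either, but CPM (counts scaled to library totals) after TMM normalization did (43.7 to 49.2 in GFP-positive cells, 47.4 to 51.9 in GFP-negative cells), and the log2 fold change of -0.10 (95% interval -0.26 to 0.05, edgeR adjusted p = 0.235) was not past the threshold. TPM values of the groups did not overlap in 58.5% of all genes tested, and in 8 of the 10 members.

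Copies of one TEAD gene are similar in sequence, and reads that match both can be divided between them in kallisto's estimates. Counts were therefore also summed over each pair, a step chosen after the single values had been seen. The sum of *tead1a* and *tead1b* had a log2 fold change of -0.20 from counts (edgeR adjusted p = 0.0314), while the ratio of its mean TPM values was -0.48 on the log2 scale. The sum of *tead3a* and *tead3b* had a log2 fold change of -0.27 from counts (edgeR adjusted p = 0.00411), and -0.34 by mean TPM. Both pairs were thus lower in GFP-positive cells on either scale, by an amount that depends on the scale. Estimated counts are not scaled by length. In the GFP-positive libraries *tead1b* had 2289, 1914 and 2526 counts, beside 1879, 1818 and 2534 for *tead1a*. *tead1b* therefore weighs more in the summed counts of its pair than in the summed TPM. How far reads were divided between the copies was not tested, and the separate values, the higher level of *tead1b* included, carry that uncertainty.

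Summed over the 4 genes, *tead* RNA amounted to 124, 131 and 157 TPM in the GFP-positive libraries, against 176, 191 and 179 TPM in the GFP-negative libraries, again without overlap. The shares of the genes in this pool are given as a description and were not tested. *tead1a* made up 36.6% ± 2.41 (SD, n = 3) of it in GFP-positive cells, against 42.7% ± 0.746 in GFP-negative cells, whereas *tead3b* made up 38.2% ± 1.89 in GFP-positive cells, against 33.1% ± 1.22 in GFP-negative cells. *tead1b* held 9.61% ± 0.319 of the pool in GFP-positive cells, against 6.19% ± 0.128 in GFP-negative cells, with no overlap. *tead3a* held 14.5% to 17.4% in GFP-positive libraries and 17.6% to 18.4% in GFP-negative libraries. In GFP-positive cells *tead3b* and *tead1a* could not be ranked, because their library values overlapped. In GFP-negative cells *tead1a* was above *tead3b* in every library. *tead3a* and then *tead1b* followed in both populations, with no overlap between neighbours.

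**Figure D2:**
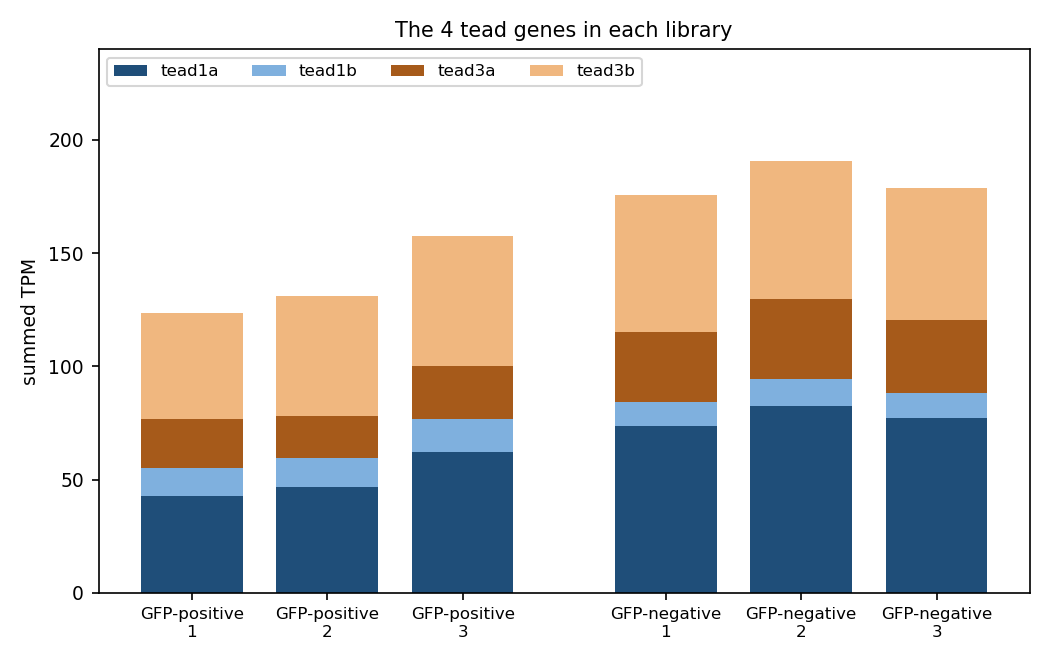
Stacked TPM of *tead1a*, *tead1b*, *tead3a* and *tead3b* in each library (vertical axis, summed TPM from 0; GFP-positive libraries on the left). The stacks reach 124 to 157 TPM in GFP-positive cells, against 176 to 191 TPM in GFP-negative cells, and the *tead1a* segment accounts for most of the difference in height.

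Of the 2 coactivators, *yap1* was by far the more abundant RNA. It had 165.2, 164.6 and 189 TPM in the GFP-positive libraries, against 189, 205 and 196 TPM in the GFP-negative libraries. The groups overlapped, because the third GFP-positive library lay just above the lowest GFP-negative one. The log2 fold change of -0.07 (95% interval -0.17 to 0.04, edgeR adjusted p = 0.265) was not past the threshold.

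*wwtr1*, which encodes Taz, had 7.40, 10.3 and 10.1 TPM in the GFP-positive libraries, against 13.4, 11.6 and 11.9 TPM in the GFP-negative libraries. No GFP-positive library reached a GFP-negative one in TPM. In normalized CPM the closest libraries almost met, with 12.69 in GFP-positive replicate 2 and 12.71 in GFP-negative replicate 2. The log2 fold change was -0.30 (95% interval -0.57 to -0.04), with an edgeR adjusted p of 0.0523 that misses the threshold narrowly. It passed with RLE factors in edgeR (adjusted p = 0.0416), without a filter on low counts in edgeR (adjusted p = 0.048), with DESeq2 (adjusted p = 0.0364), with limma on log2(TPM + 1) (adjusted p = 0.0457), and when GFP-positive replicate 2 (edgeR adjusted p = 0.0334), GFP-positive replicate 3 (0.04) or GFP-negative replicate 2 (0.0428) was left out. It did not pass in 7 of the 14 alternatives, among them without GFP-positive replicate 1 (edgeR adjusted p = 0.21) and without GFP-negative replicate 1 (0.202). With the most abundant transcript the edgeR adjusted p was 0.178. Whether *wwtr1* differs thus rests on the setting, although its direction was the same in all 14 alternatives set for it. *yap1* made up 94.9% ± 0.808 (SD, n = 3) of the summed TPM of both coactivators in GFP-positive cells, against 94.1% ± 0.672 in GFP-negative cells. Per TPM of *tead* RNA there were 1.33 ± 0.0654 TPM of *yap1* and *wwtr1* in GFP-positive cells, against 1.15 ± 0.0143 TPM in GFP-negative cells, which did not overlap.

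The 4 targets are genes whose promoters or enhancers TEAD proteins are known to act on in vertebrates. *ctgfa*, which encodes a secreted matricellular protein of the CCN family, showed the largest difference of all 10 members. It had 288, 292 and 295 TPM in the GFP-positive libraries, against 131, 141 and 137 TPM in the GFP-negative libraries. The 3 GFP-positive libraries differed from each other by little in TPM (coefficient of variation 1.14%), and each lay far above every GFP-negative one. In normalized CPM they spread more, with 450, 444 and 421, against 186, 191 and 191 in the GFP-negative libraries. The log2 fold change was 1.21 (standard error 0.05, edgeR adjusted p = 9.57e-11), and it lay between 1.09 and 1.24 in all 14 alternatives. Among all genes tested, 8.45% were called at least 2-fold higher in GFP-positive cells.

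*amotl2b* encodes an angiomotin-like protein, a junction-associated protein that binds Yap and holds it outside the nucleus, and its gene is itself a Yap target. It had 62.0, 64.1 and 69.7 TPM in the GFP-positive libraries, against 32.9, 33.6 and 32.7 TPM in the GFP-negative libraries. The groups were far apart, and the log2 fold change was 1.10 (standard error 0.05, edgeR adjusted p = 8.32e-10). The paralog *amotl2a* was several times more abundant and changed less. It had 208, 224 and 270.0 TPM in the GFP-positive libraries, against 176, 204 and 188 TPM in the GFP-negative libraries, values that came close to each other without overlap. Its log2 fold change was 0.44 (standard error 0.06, edgeR adjusted p = 1.40e-05), but limma on log2(TPM + 1) gave 0.30 (adjusted p = 0.0693) and limma on log2(TPM + 0.1) also 0.30 (adjusted p = 0.101), past neither threshold. The ratio of *amotl2a* to *amotl2b* TPM was 3.35 to 3.87 in GFP-positive libraries and 5.35 to 6.09 in GFP-negative libraries. Summed over both copies, the log2 fold change was 0.56 (edgeR adjusted p = 5.30e-07).

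*cyr61*, the gene of another secreted CCN protein and a widely used readout of Yap activity, was not called. It had 53.2, 51.5 and 55.4 TPM in the GFP-positive libraries, against 51.6, 55.3 and 59.1 TPM in the GFP-negative libraries, values that overlapped almost completely. Its log2 fold change was 0.06 (95% interval -0.07 to 0.20, edgeR adjusted p = 0.407), and it turned to -0.05 with limma on log2(TPM + 1) and on log2(TPM + 0.1). The ratio of *ctgfa* to *cyr61* TPM was 5.32 to 5.68 in GFP-positive libraries and 2.32 to 2.55 in GFP-negative libraries.

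**Figure D3:**
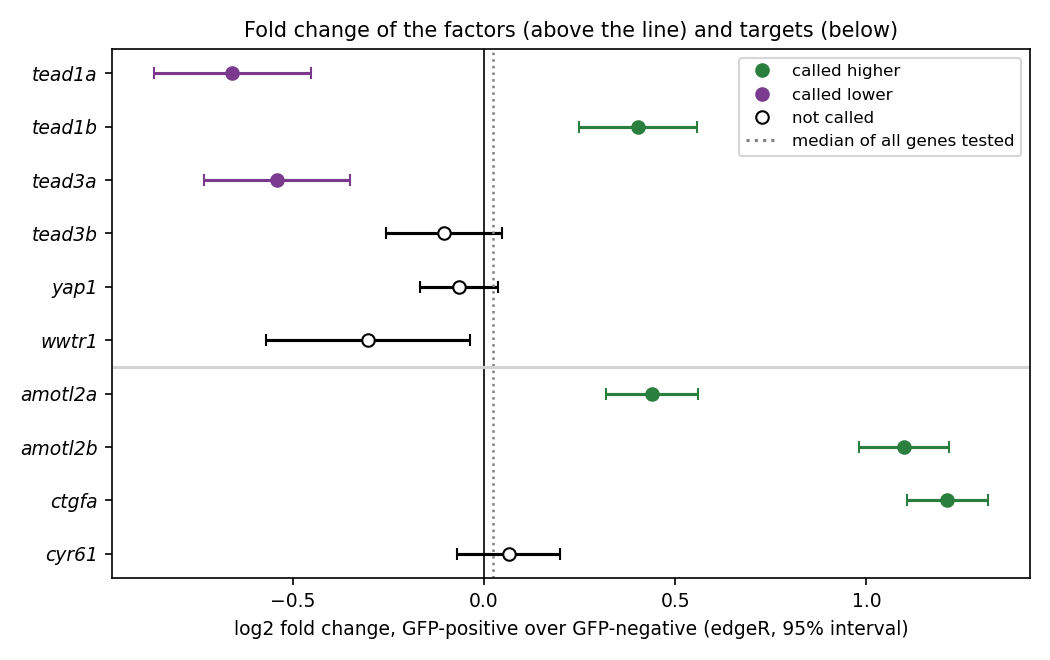
Log2 fold change of each member, GFP-positive over GFP-negative, from edgeR with its 95% interval; factors stand above the horizontal line and targets below it. *ctgfa* (1.21) and *amotl2b* (1.10) lie farthest to the right, *tead1a* (-0.66) and *tead3a* (-0.54) farthest to the left, and open circles mark genes that were not called.

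*ctgfa*, *amotl2b* and *amotl2a* were called higher in GFP-positive cells, a direction that genes of several marker lists shared. Higher were all 10 EVL, 3 of 4 basal epidermis, 3 of 3 hatching gland and 2 of 3 notochord markers. So were 2 of 5 blood and endothelium, 1 of 5 paraxial mesoderm and 1 of 2 yolk syncytial layer genes (all genes 24.1%). All 5 neural, 3 of 5 paraxial mesoderm and 1 of 5 blood and endothelium markers were lower (all genes 25.0%). A shared direction therefore does not assign the targets to a cell type. *col8a1a*, a collagen gene of the notochord, had 172, 183 and 215 TPM in the GFP-positive libraries, against 33.1, 36.7 and 34.6 TPM in the GFP-negative libraries, while *noto*, which defines the early notochord, had 14.0, 13.04 and 11.6 TPM in the GFP-positive libraries, against 12.9, 12.7 and 14.5 TPM in the GFP-negative libraries. The 3 notochord markers, 2 of them higher, summed to 290 to 351 TPM in GFP-positive cells, against 75.3 to 80.7 TPM in GFP-negative cells, and the part of such cells in the levels of the targets was not tested.

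In order of mean TPM, *ctgfa* led in GFP-positive cells, followed by *amotl2a*, *yap1* and *amotl2b* without overlap between neighbours. *cyr61*, *tead3b* and *tead1a* came next, with overlapping values, and then *tead3a*, *tead1b* and *wwtr1*. In GFP-negative cells *yap1* and *amotl2a* led with overlapping values, and *ctgfa* and then *tead1a* followed. Below them *tead3b* and *cyr61* overlapped, and so did *amotl2b* with *tead3a*, and *wwtr1* with *tead1b*. Within the GFP-positive group the third library had the highest TPM for 9 of the 10 members, and the highest normalized CPM for 7 of 10. Within the GFP-negative group the second library had the highest TPM for 8 of the 10 members but the highest normalized CPM for 3 of 10. The spread between GFP-positive libraries was widest for *tead1a* (coefficient of variation 19.9%, against 5.69% in GFP-negative cells) and *wwtr1* (17.6%, against 8.06%). Without GFP-positive replicate 3 the log2 fold change of *tead1a* was larger in size, and over all libraries left out in turn it stayed between -0.78 and -0.55.

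The transcripts of each gene were also tested singly. Of the 21 member transcripts, 19 were tested, 5 were called higher in GFP-positive cells, 3 were called lower and 11 were not called, beside 32.5% of all 32736 transcripts tested that were called in either direction. *yap1*, *amotl2b*, *ctgfa* and *cyr61* have 1 transcript each. *wwtr1* has a second transcript that was listed at 0 in every library.

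*tead1a* has 3 transcripts, of which 1 was called. ENSDART00000125925 had 26.2, 33.3 and 41.2 TPM in the GFP-positive libraries, against 57.7, 64.1 and 58.2 TPM in the GFP-negative libraries (fitted log2 change -0.72, standard error 0.13, edgeR adjusted p = 0.00484). It made up 66.1% ± 5.04 (SD, n = 3) of *tead1a* TPM in GFP-positive cells, against 77.3% ± 1.61 in GFP-negative cells. ENSDART00000125444 had 8.86, 4.74 and 13.2 TPM in the GFP-positive libraries, against 4.79, 5.36 and 7.22 TPM in the GFP-negative libraries, with overlapping groups and an edgeR adjusted p of 0.187.

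*amotl2a* has 5 transcripts, which did not all go one way. The most abundant, ENSDART00000088914, had 119, 130 and 142 TPM in the GFP-positive libraries, against 103, 93.3 and 92.0 TPM in the GFP-negative libraries, and it rose (fitted log2 change 0.58, edgeR adjusted p = 0.000986). The next most abundant, ENSDART00000141354, was also called higher (fitted log2 change 0.50, edgeR adjusted p = 0.0377). ENSDART00000160354 was not called (edgeR adjusted p = 0.924). ENSDART00000143974 fell, with 7.23, 8.81 and 9.89 TPM in the GFP-positive libraries, against 12.95, 16.2 and 14.0 TPM in the GFP-negative libraries (fitted log2 change -0.66, edgeR adjusted p = 0.0325). It supplied 3.70% ± 0.229 (SD, n = 3) in GFP-positive cells, against 7.58% ± 0.294 in GFP-negative cells, as a share of *amotl2a* TPM. Division of reads among transcripts of one gene is estimated and less certain than the gene sum.

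**Figure D4:**
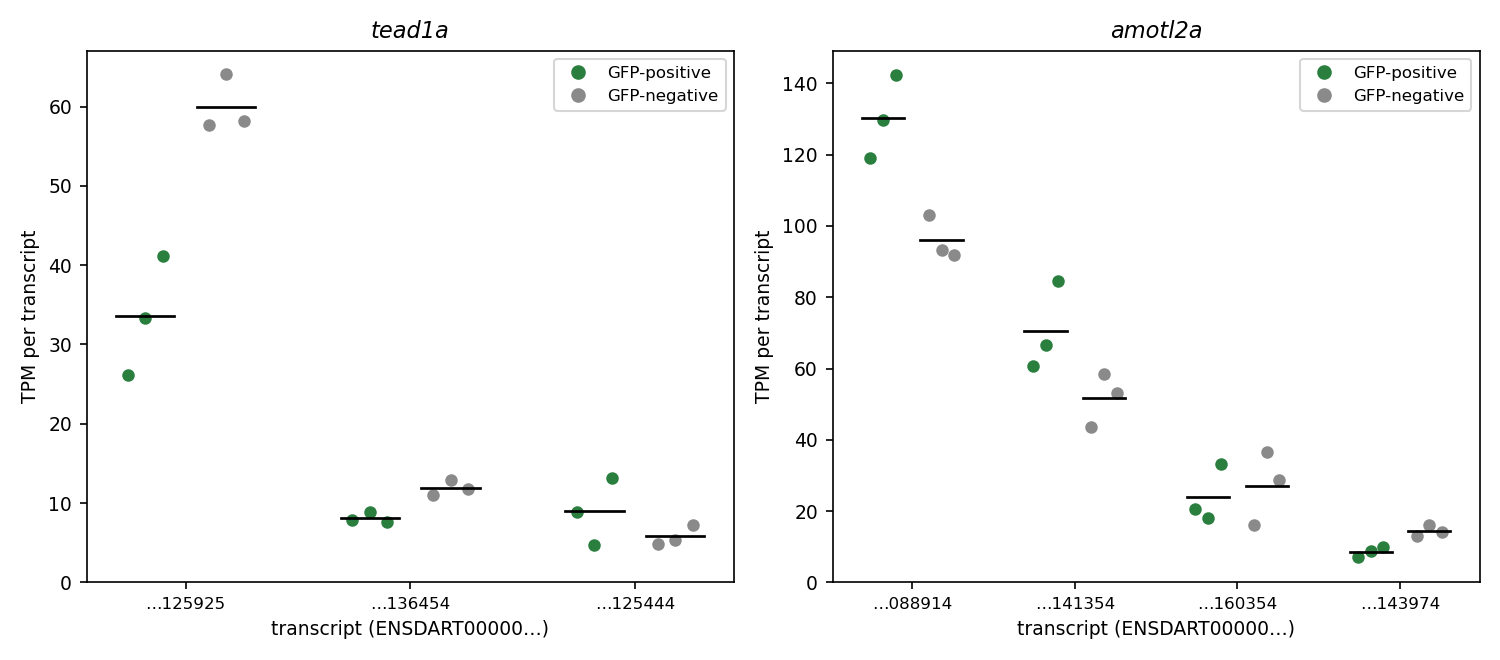
TPM of single transcripts of *tead1a* and *amotl2a* in each GFP-positive (green) and GFP-negative (grey) library, with the group mean as a bar; axes start at 0, and a transcript of *amotl2a* near 0 is left out. The first *tead1a* transcript is lower in all GFP-positive libraries, and the transcript of *amotl2a* at the right is lower although the one at the left is higher.

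Vestigial-like proteins are another family of TEAD cofactors and bind TEAD in place of Yap or Taz. Of 7 symbols looked for, 5 were found and tested; 3 were called higher in GFP-positive cells, 1 was called lower and 1 was not called, with a median log2 fold change of 0.62 beside 0.02 over all genes. The 3 of 5 called higher stand beside 24.1% of all genes, and the 1 of 5 called lower beside 25.0%. *vgll2b*, whose mammalian counterpart is known from muscle and craniofacial development, had 83.2, 79.9 and 92.2 TPM in the GFP-positive libraries, against 15.2, 14.9 and 16.2 TPM in the GFP-negative libraries. The groups lay far apart (fitted log2 change 2.57, standard error 0.07, edgeR adjusted p = 1.56e-12), farther than for any member. Its paralog *vgll2a* was less abundant, with 15.9, 14.2 and 14.1 TPM in the GFP-positive libraries, against 5.08, 4.69 and 3.94 TPM in the GFP-negative libraries (fitted log2 change 1.79, edgeR adjusted p = 1.35e-07).

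Mammalian VGLL4 is known to compete with YAP for TEAD and to hold target genes down. Its 3 zebrafish relatives did not move alike. *vgll4l* had 74.3, 77.3 and 76.1 TPM in the GFP-positive libraries, against 53.0, 52.4 and 55.2 TPM in the GFP-negative libraries (fitted log2 change 0.62, edgeR adjusted p = 1.78e-06). *vgll4a* had 2.70, 2.47 and 3.43 TPM in the GFP-positive libraries, against 6.86, 7.20 and 6.66 TPM in the GFP-negative libraries (fitted log2 change -1.16, edgeR adjusted p = 8.53e-07). For *vgll4b* the 2 scales disagreed. It had 39.9, 38.8 and 45.4 TPM in the GFP-positive libraries, against 34.1, 35.8 and 27.0 TPM in the GFP-negative libraries, which gave 0.36 with limma on log2(TPM + 1) (adjusted p = 0.0472), but the summed counts gave -0.04 (edgeR adjusted p = 0.664).

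Genes of kinases, scaffolds and other proteins that act on Yap and Taz were examined as a list of 36 symbols, of which 30 were found and tested. The list pools genes of different roles, so its counts and median do not measure the activity of the pathway. In GFP-positive cells 6 were called higher, 12 were called lower and 12 were not called, with a median log2 fold change of -0.14 beside 0.02 over all genes. The 6 of 30 called higher stand beside 24.1% of all genes, a share near the background, and the 12 of 30 called lower beside 25.0%. *stk3*, which encodes a core kinase of the pathway, had 63.8, 63.9 and 68.3 TPM in the GFP-positive libraries, against 60.4, 65.1 and 62.2 TPM in the GFP-negative libraries (fitted log2 change 0.16, edgeR adjusted p = 0.0158). Its TPM values overlapped, and limma on log2(TPM + 1) gave 0.06 (adjusted p = 0.516). *lats1* and *lats2*, which phosphorylate Yap, were not called (log2 fold changes -0.14 and 0.11, edgeR adjusted p = 0.199 and 0.439). *stk3*, *lats1* and *lats2* were picked for mention after their values were seen. The largest decreases among called genes were those of kinases of the MAP4K and TAO groups, which act in parallel with or above the core kinases. *map4k6* had 0.747, 0.622 and 1.05 TPM in the GFP-positive libraries, against 1.87, 1.93 and 2.71 TPM in the GFP-negative libraries (fitted log2 change -1.31), *taok1a* had a log2 fold change of -0.87, and *map4k3b* one of -0.85, although its TPM values overlapped and limma on log2(TPM + 1) gave -0.35 (adjusted p = 0.152).

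Among the genes of that list called higher, the largest log2 fold change was 0.52. It was that of *wtip*, which was exceeded only by *taok3b*, a scarce gene with less than 1 TPM in every library that was not called (fitted log2 change 1.62, edgeR adjusted p = 0.0921) and was picked for mention after its values were seen. *wtip*, which encodes a LIM protein of the Ajuba family, had 11.5, 12.7 and 12.4 TPM in the GFP-positive libraries, against 10.6, 9.64 and 7.76 TPM in the GFP-negative libraries (fitted log2 change 0.52, edgeR adjusted p = 0.00264). *map4k2* and *taok3a* followed with 0.41 and 0.40. The count of 6 was not stable. It was 2 without GFP-negative replicate 3, 2 at an adjusted p below 0.01, 3 with the most abundant transcript of each gene, 1 with limma on log2(TPM + 1) and 0 with limma on log2(TPM + 0.1), while the count of 12 lower was between 9 and 14 with each library left out in turn and 5 with the most abundant transcript.

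Further target genes were taken as the zebrafish paralogs of *ctgfa* and *cyr61* and the counterparts of genes that respond to YAP or TAZ in human cells. Of 28 symbols, 24 genes were found and 23 were tested. In GFP-positive cells 14 were called higher, 2 were called lower and 7 were not called, with a median log2 fold change of 0.67 beside 0.02 over all genes. The share called higher, 14 of 23, stands beside 24.1% of all genes. Like the other pathway lists, this one was chosen with earlier results of these data known, so its counts are a description only. *ankrd1a*, which encodes an ankyrin repeat protein and is among the most used YAP readouts in mammals, had 9.89, 12.9 and 11.3 TPM in the GFP-positive libraries, against 3.41, 4.36 and 3.03 TPM in the GFP-negative libraries (fitted log2 change 1.77, edgeR adjusted p = 1.84e-07). *cyr61l1*, a relative of *cyr61*, was scarce but higher in all GFP-positive libraries, with 1.82, 3.12 and 1.87 TPM against 0.464, 0.424 and 0.685 TPM in GFP-negative cells (fitted log2 change 2.21, edgeR adjusted p = 2.48e-05).

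*gadd45aa*, a stress-response gene, had 18.5, 22.2 and 19.5 TPM in the GFP-positive libraries, against 5.92, 5.45 and 7.99 TPM in the GFP-negative libraries (fitted log2 change 1.73). The 2 genes that fell were *igfbp3*, which encodes a binding protein of insulin-like growth factors, with 9.37, 8.31 and 9.31 TPM in the GFP-positive libraries, against 19.99, 21.9 and 24.8 TPM in the GFP-negative libraries (fitted log2 change -1.07, edgeR adjusted p = 3.99e-08), and *asap1a*, with a log2 fold change of -0.35. Many genes of this list also respond to other signals, and *lats2* stands on both lists. The count of genes called higher was 11 to 14 in all alternatives tried.

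**Figure D5:**
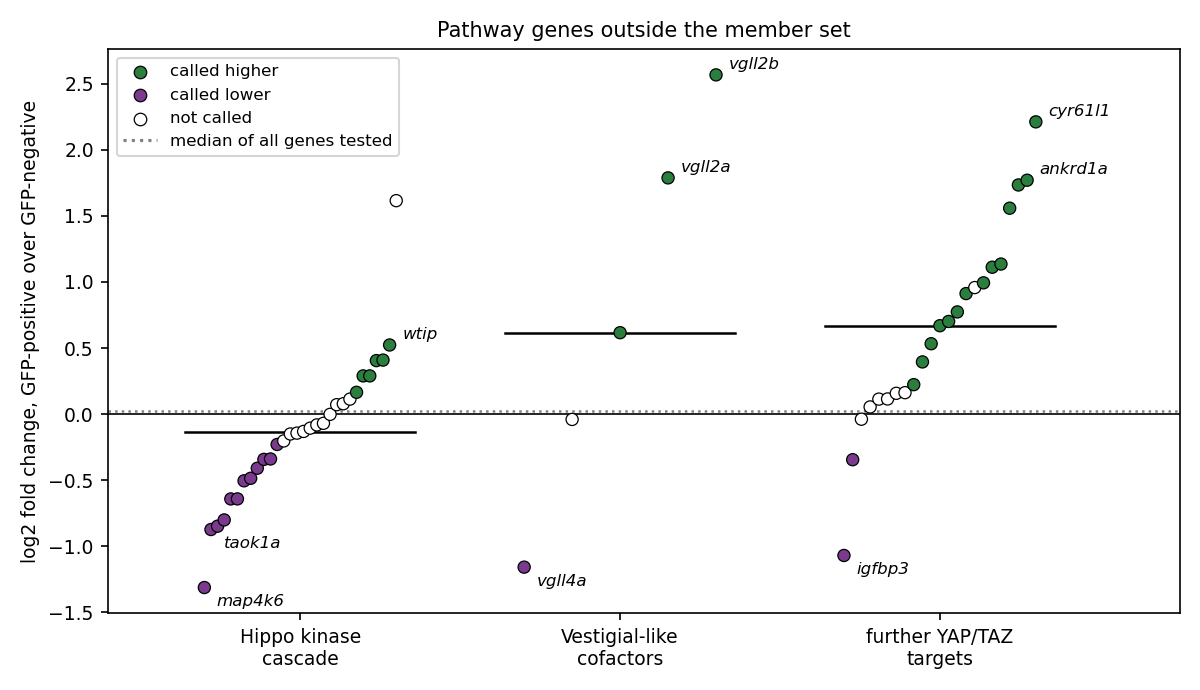
Log2 fold change (vertical axis, GFP-positive over GFP-negative, edgeR) of each tested gene of the pathway lists, ordered by value within a list. The lists are the Hippo kinase cascade, which also holds scaffolds and other regulators of Yap and Taz, Vestigial-like cofactors and further YAP/TAZ targets. The list's median is a bar and the median of all genes is dotted. The further targets (median 0.67) lie mostly above 0 and the kinase cascade (median -0.14) mostly below, and white points were not called.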

How the data were processed

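Per the labels and the methods of the study, the authors used Trimmomatic for trimming and kallisto for pseudoalignment to the zv10 transcripts (0.41 in the submitters' processing notes) and deposited, per library, estimated counts and TPM for 51286 transcripts. The annotation release is not given in the sources used here. TPM values are scaled by effective length and library, while estimated counts are not. The authors' deposited sleuth columns (effects, p-values, q-values) were not used. Their table supplied the gene symbols, and its TPM equalled those of the single libraries for 100% of transcripts (within 0.1%).

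Estimated counts were summed per Ensembl gene, rounded and tested on all genes with edgeR 4.0.16 (R 4.3.3; TMM, default filterByExpr, quasi-likelihood F test, Benjamini-Hochberg), without covariates. The standard error of a change was taken as its absolute value over the root of the F statistic. Intervals of 95% use the t quantile with the test's degrees of freedom. The call rule was an adjusted p below 0.05 and a mean TPM above 1 in the population with the higher level. It differs from the study, whose results use q below 0.05 with a TPM limit set in GFP-positive cells and whose methods name 0.01. At 0.01 every call count of the members was the same. Totals of 40584467 to 49679602 set the precision, and 3 counts equal 0.0604 to 0.0739 CPM. Replicates differed by more than sampling noise (chi-square per degree of freedom of at least 5.41), and nothing was merged. The procedure was tested on simulated data. Further fits used library size alone, no filter, DESeq2 1.42.0, RLE factors, a replicate block, each library left out, limma 3.58.1 on log2(TPM + 1) and log2(TPM + 0.1), single transcripts, an adjusted p below 0.01 and no TPM limit. Sums over paralog pairs were added after seeing the data.

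The members, the pathway lists and the marker lists were chosen with earlier results of these data known. Named are all members, all Vestigial-like genes tested, the 3 called genes with the largest changes in each direction of the other pathway lists, and *krt4*. *noto*, *col8a1a*, *ta*, *ctslb*, *gsc*, *stk3*, *taok3b*, *lats1* and *lats2* were named beyond that rule, after their values were seen. No sequences or genome positions are given, since no genome of the authors' build was used here.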

Additional observations from a re-analysis of the deposited data

How the results depend on the processing

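Of 140 refits of the 10 members (14 each), 126 kept direction and side of the threshold. *cyr61* reversed to -0.0495 with limma on log2(TPM + 1) and to -0.0503 with limma on log2(TPM + 0.1), and the causes were not tested. *tead1b* kept its direction in all 14 of its refits (0.21 to 0.43). The sum of *tead1a* and *tead1b*, a different quantity outside these refits, had a log2 fold change of -0.20. The number of factors called higher was 0 with limma on log2(TPM + 1), 0 with limma on log2(TPM + 0.1) and 0 with the most abundant transcript, against 1. The count called higher on the kinase cascade list, which also holds scaffolds and other regulators, was 6. It was 1 and 0 with the same 2 limma settings and 3 with the most abundant transcript. At an adjusted p below 0.01 it was 2, and with each library left out it was 2 to 6. With the most abundant transcript, 5 of that list were called lower, against 12, and 1 of the further targets, against 2. Both limma settings also moved the median log2 fold change of all genes, which was 0.02 in the main fit. It was -0.06 on log2(TPM + 1) and -0.09 on log2(TPM + 0.1).

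Same-numbered libraries did not deviate together (correlations of deviations from the group means of 0.00382, -0.0103 and -0.00217). Each incross gave both populations, but the labels do not say that a replicate number marks an incross, so whether the numbers pair the samples is not known and the fit without the block was kept. The replicate block changed no call of a member (*ctgfa* 1.21, *tead1a* -0.67, *wwtr1* -0.31 with edgeR adjusted p = 0.0711). It left 5 genes of the kinase cascade list and 13 further targets higher. With 3 libraries a group, differences as small as those of *yap1* and *cyr61* cannot be told from the spread between libraries.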
